A study of Mus musculus with 10 samples.

Results

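Maternal effect genes are transcribed in the oocyte, and their products are used by the embryo after fertilization. The genes described here are Nlrp5, Nlrp4f, Nlrp14, Ooep, Padi6, Npm2 and Zar1, a list of 7 taken by name, with every probe set of the array annotated to them. Of the 7 genes 6 had a probe set, 1 each, among 18193 genes with a probe set of their own, and 5 of them passed the filter on low signals that a test required. Npm2, which encodes a chaperone that loosens sperm chromatin in the egg, had no probe set under that name in the annotation used and was not analysed here.

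In oocytes, NLRP5, OOEP, TLE6 and KHDC3 assemble into the subcortical maternal complex, a protein assembly under the egg membrane, with ZBED3 and NLRP4F as further binding partners. PADI6 is needed for the cytoplasmic lattices of the oocyte, fibrous structures in which proteins are stored for the embryo. Female mice that lack one of several of these proteins make eggs whose embryos stop at the first cleavages, and transcription of the genes is best known from growing oocytes after birth.

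RNA of the mouse embryonic ovary was measured on oligonucleotide arrays at 5 stages between E11.5 and E18.5 (embryonic days, with E12.5, E14.5 and E16.5 between them), with 2 arrays a stage from preparations that the labels call independent. No stage carried a treatment or a mutation that the labels name, and strain and pooling of embryos were not given in the sources used here, so the p-values measure the spread between these preparations only. Across these days female germ cells enter meiosis, and the comparisons ask at which interval the transcripts changed. E12.5 replicate 2 entered no comparison, because its log2 signals correlated with those of the other arrays at r of 0.418 to 0.470 across probe sets, against 0.873 to 0.964 among the other 9.

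Signals are linear array intensities scaled to a common 75th percentile, and changes are differences of log2(signal + 16), which understates the change of dim genes. The background limit of an array is the 95th percentile of its 27 control probe sets for bacterial genes that were not spiked in, and it lay between 19.5 and 33.0 on the 9 arrays. The ratio of the 3′ to the 5′ probe set of Actb, a sign of RNA integrity, was 10.6 on E12.5 replicate 1 and 1.51 to 2.22 on the 8 arrays of other stages, so that array enters the fit and the correlations as the single E12.5 value, and no pair of stages with E12.5 was tested. The experiment files give a hybridize date for each array, and arrays that share it are called a wash run here. The E18.5 arrays formed a run of their own, those of E14.5 and E16.5 another and those of E11.5 and E12.5 another, 3 in all. Stage and wash run cannot be told apart in the comparisons of E18.5 or in that of E14.5 with E11.5. With 2 arrays a stage, each value has a limited precision.

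Nlrp5, Nlrp4f and Padi6 were brightest on both E18.5 arrays. Against E16.5, Nlrp5 was 3.28 higher on the log2 scale, Padi6 1.83 and Nlrp4f at least 18.3-fold, and all 3 passed the test. Nlrp5 alone was also past the test earlier, between E11.5 and E14.5. Ooep and Zar1 gave signal above background at every stage and passed the test in none of the 4 pairs of stages compared, and Nlrp14 stayed at or under the background limit on all 9 arrays.

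**Figure D1:**
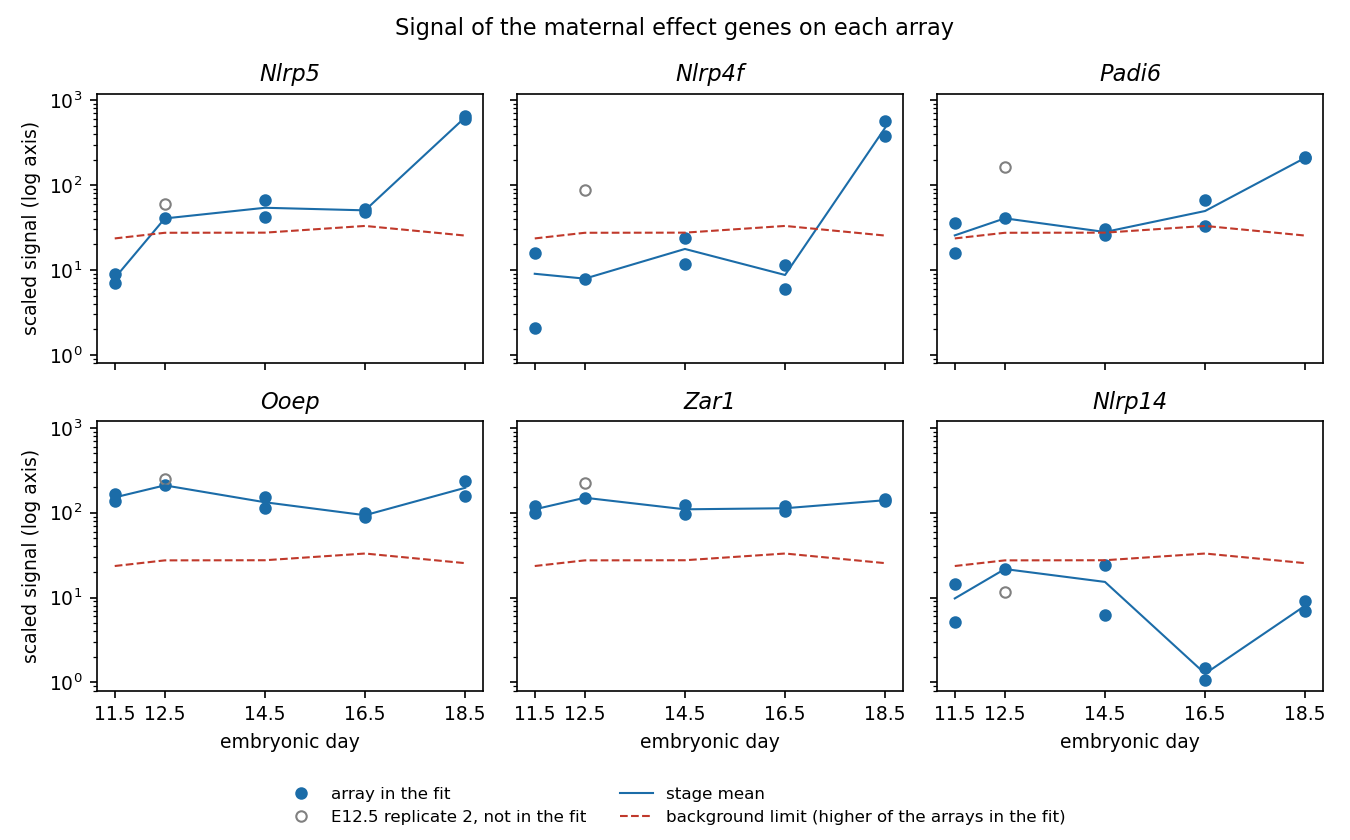
Scaled signal (log axis) of the 6 measured genes on each array by embryonic day. Filled points are the 9 arrays in the fit, lines join stage means, the open point is E12.5 replicate 2 and the dashed line is the higher background limit of the arrays in the fit at that day. Nlrp5, Nlrp4f and Padi6 stand far above the dashed line at E18.5, with signals of 207 or more, and Nlrp14 stays at or under it.

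The sequences around the start sites of the 3 genes that rose at E18.5 are shown as a description. These genes were taken by that rise, which carries most of the range their signals share. Shared regulation was not tested. They come from RefSeq on GRCm38.p6 and run 5′ to 3′ on the strand of the gene, with 250 bases before the start and 50 after it. Nlrp5 has 2 listed starts, at chr7:23385639-23385938 and chr7:23403852-23404151, both on the plus strand. Nlrp4f lies on the minus strand at chr13:65205667-65205966 and Padi6 on the minus strand at chr4:140742594-140742893. Capitals mark the E-box CANNTG, bound by basic helix-loop-helix proteins such as FIGLA and SOHLH1, and the homeodomain-type motifs TAATTG and TAATTA, searched on both strands.
Nlrp5, first start: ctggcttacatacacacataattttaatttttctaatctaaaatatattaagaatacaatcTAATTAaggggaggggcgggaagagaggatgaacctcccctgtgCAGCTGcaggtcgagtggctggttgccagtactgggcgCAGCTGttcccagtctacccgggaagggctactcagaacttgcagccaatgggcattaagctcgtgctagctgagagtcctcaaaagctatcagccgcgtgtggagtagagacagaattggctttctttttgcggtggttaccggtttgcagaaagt
Nlrp5, second start: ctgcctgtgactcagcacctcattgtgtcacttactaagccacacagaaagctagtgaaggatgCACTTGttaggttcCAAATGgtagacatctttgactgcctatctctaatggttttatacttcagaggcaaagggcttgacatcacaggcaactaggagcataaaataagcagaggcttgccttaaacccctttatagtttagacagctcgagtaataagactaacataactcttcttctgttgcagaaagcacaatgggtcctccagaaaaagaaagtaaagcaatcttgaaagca
Nlrp4f: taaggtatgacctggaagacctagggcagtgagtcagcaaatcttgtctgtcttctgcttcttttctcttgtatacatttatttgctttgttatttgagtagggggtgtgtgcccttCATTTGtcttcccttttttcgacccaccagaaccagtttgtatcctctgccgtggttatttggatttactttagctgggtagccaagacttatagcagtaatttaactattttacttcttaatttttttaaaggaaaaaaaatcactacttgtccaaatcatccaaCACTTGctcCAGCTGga
Padi6: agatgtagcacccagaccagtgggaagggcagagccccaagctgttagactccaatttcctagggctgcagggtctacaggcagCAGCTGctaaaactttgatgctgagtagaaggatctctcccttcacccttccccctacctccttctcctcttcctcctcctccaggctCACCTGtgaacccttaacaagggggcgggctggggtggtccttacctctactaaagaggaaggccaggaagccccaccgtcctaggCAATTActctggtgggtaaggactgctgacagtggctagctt
The first Nlrp5 sequence holds 2 E-boxes and 1 TAATTA, the second Nlrp5 sequence 2 E-boxes, the Nlrp4f sequence 3 E-boxes, and the Padi6 sequence 2 E-boxes and 1 TAATTG, read as CAATTA on the strand shown. No 2 marked motifs overlap. Of the genes with no call at E18.5, Ooep, at chr9:78378539-78378838 on the minus strand, has 1 E-box and 1 TAATTG, and Zar1, at chr5:72581035-72581334 on the minus strand, has 2 E-boxes. Of 32851 RefSeq promoter sequences of the same length, 72.3% hold CANNTG, 8.0% hold TAATTG and 5.29% hold TAATTA. These matches are descriptions of letters, not binding sites. Promoter sequences were found for 5 of the 7 genes.

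Nlrp5 (NCBI gene 23968) encodes MATER, a core protein of the subcortical maternal complex. Its scaled signals were 7.0 and 9.02 at E11.5, 40.5 on the single E12.5 array, 41.8 and 66.3 at E14.5, 52.4 and 48.4 at E16.5, and 604 and 653 at E18.5. Both E11.5 arrays were under the background limit, the middle stages lay modestly above it, and the E18.5 arrays overlapped with no other stage. Stage means were 628 ± 34.8 at E18.5 against 50.4 ± 2.84 at E16.5 (SD, n = 2 each), a ratio of 12.46. The change was 3.28 ± 0.27 on the log2 scale (SE, 95% interval 2.69 to 3.86, limma adjusted p 7.17e-05).

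Over the whole span Nlrp5 was at least 27.9-fold higher at E18.5 than at E11.5, where only a bound can be given (limma adjusted p 1.46e-07). The first step was smaller: the E14.5 arrays averaged 54.1 ± 17.3, against 8.01 ± 1.43 at E11.5 (SD, n = 2 each), at least 2.34-fold higher with a limma adjusted p of 0.00495. That change was 0.71 on the log2 scale with 64 added before the logarithm, 2.58 with 1 added and 1.52 with 16, and its adjusted p was 0.05004 without E14.5 replicate 2. Between E14.5 and E16.5 no change passed the test, with a difference of -0.06 ± 0.27 at E16.5 (SE, 95% interval -0.64 to 0.53, limma adjusted p 0.939).

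Nlrp4f (NCBI gene 97895) encodes an NLRP protein found with the subcortical maternal complex in mouse oocytes. Its scaled signals were 15.95 and 2.07 at E11.5, 7.90 on the E12.5 array, 11.9 and 23.5 at E14.5, 11.54 and 5.91 at E16.5, and 378 and 571 at E18.5. The probe set was above the background limit on the E18.5 arrays and on none of the other 7, so that the order of the earlier stages has no meaning. Genes with that pattern made up 0.473% of the 18193 genes, 86 in all, and Nlrp4f was the only one of the 6 measured genes among them.

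The E18.5 mean of Nlrp4f was 474 ± 136, against 8.73 ± 3.98 at E16.5 (SD, n = 2 each), at least 18.3-fold higher. The limma change was 4.29 ± 0.42 (SE, adjusted p 3.59e-04), a value that depends on the 16 added, since both E16.5 arrays were under the background limit. Against E11.5, with a mean of 9.01 ± 9.81 (SD, n = 2), the E18.5 mean was at least 20.7-fold higher, with a limma adjusted p of 1.50e-05. Nlrp4f passed the filter only through the E18.5 arrays, where it is high, so a difference was built into its being tested. Its E18.5 arrays differed from each other more than those of Nlrp5 did, 571 on replicate 2 and 378 on replicate 1.

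Nlrp14 (NCBI gene 76858) encodes an NLRP protein of oocytes and male germ cells whose maternal loss stops early mouse embryos. Its scaled signals were 14.3 and 5.19 at E11.5, 21.7 at E12.5, 6.23 and 24.3 at E14.5, 1.06 and 1.48 at E16.5, and 9.20 and 6.87 at E18.5. No array lay above its background limit, the gene failed the filter, and no fold is given. Fitted without the filter, the change at E18.5 against E16.5 was 0.48 ± 0.32 (SE, limma adjusted p 0.614). A signal under this limit does not show that the transcript was absent.

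Padi6 (NCBI gene 242726) encodes a peptidylarginine deiminase family member of the oocyte. Its scaled signals were 35.3 and 15.8 at E11.5, 40.6 at E12.5, 25.5 and 30.5 at E14.5, 32.9 and 66.1 at E16.5, and 213 and 207 at E18.5. The E18.5 arrays stood clear of all others, while the earlier stages overlapped close to the background limit, which 7 of the 9 arrays exceeded. The mean was 210 ± 4.33 at E18.5 against 49.5 ± 23.5 at E16.5 (SD, n = 2 each), a ratio of 4.24, and 25.6 ± 13.8 at E11.5, a ratio of 8.21. The change was 1.83 ± 0.35 against E16.5 (SE, limma adjusted p 0.0271) and 2.48 ± 0.35 against E11.5 (SE, limma adjusted p 2.40e-04).

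The Padi6 call in the last interval was the least secure of the 3. Its adjusted p was 0.270 without E16.5 replicate 1, 0.222 and 0.162 without E18.5 replicate 1 and replicate 2, 0.0944 with 1 added before the logarithm and 0.0863 without the filter. It was past the test in 11 of 17 alternatives, and its change stayed positive in all 17, between 1.29 and 2.21. The change against E11.5 was 1.62 with 64 added, and its call held in 17 of 18 alternatives and was lost with all 10 arrays (adjusted p 0.0719). Padi6 passed the filter only through its E18.5 arrays, since 1 other array reached the level required on 2.

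Ooep (NCBI gene 67968) encodes FLOPED, a KH domain protein of the subcortical maternal complex. Its scaled signals were 167 and 136 at E11.5, 210 at E12.5, 113 and 152 at E14.5, 98.6 and 88.1 at E16.5, and 156 and 237 at E18.5. All 9 arrays exceeded the background limit, the E16.5 arrays were the lowest, and the E18.5 arrays overlapped with the E11.5 arrays but not with the E16.5 arrays. Means were 196 ± 56.8 at E18.5 and 93.3 ± 7.39 at E16.5 (SD, n = 2 each), with a change of 0.93 ± 0.25 (SE, 95% interval 0.40 to 1.47, limma adjusted p 0.129) that missed the threshold. Against E11.5 the change was 0.32 ± 0.25 (SE, 95% interval -0.21 to 0.86, limma adjusted p 0.363).

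Over all 5 stages Ooep passed the limma F test with an adjusted p of 0.0423. The call was lost in 10 of 17 alternatives, with adjusted p between 0.0359 and 0.328 over them, and without both E12.5 arrays it was 0.0626. After E18.5 replicate 2, the highest signal of the gene on the 9 arrays was that of the E12.5 array, whose Actb ratio was high.

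Zar1 (NCBI gene 317755) encodes an RNA-binding protein that stores maternal mRNAs and is needed at the transition from egg to embryo. Its scaled signals were 120 and 99.5 at E11.5, 150 at E12.5, 123 and 96.5 at E14.5, 121 and 105 at E16.5, and 145 and 135 at E18.5. All 9 arrays exceeded the background limit, and although both E18.5 arrays were above those of E11.5, E14.5 and E16.5, the gap was small. The mean was 140 ± 6.74 at E18.5 against 113 ± 11.1 at E16.5 (SD, n = 2 each), a change of 0.28 ± 0.23 (SE, 95% interval -0.21 to 0.77, limma adjusted p 0.648). The F test over the 5 stages gave a limma adjusted p of 0.474.

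**Figure D2:**
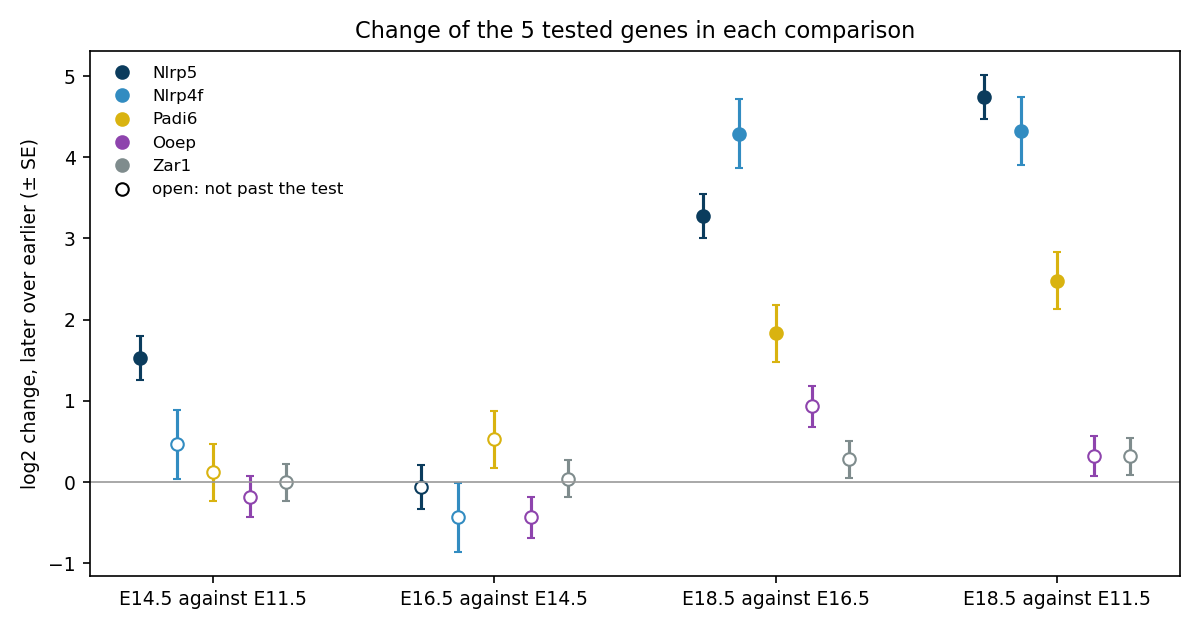
Change on the log2 scale ± SE of the 5 tested genes, later stage over earlier stage, for 4 pairs of stages, with filled points past the limma test at an adjusted p under 0.05 and open points not past it. The last interval holds 3 filled points, from 1.83 for Padi6 to 4.29 for Nlrp4f, and the interval from E14.5 to E16.5 holds none. The Nlrp4f changes, and those of Nlrp5 over E11.5, are set against signals under the background limit and depend on the value added.

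The counts of the 5 tested genes can be set beside all 13305 genes, each by its brightest probe set. Nlrp4f and Padi6 are among the 5 only through their E18.5 signals, so the count and the median at E18.5 are no support for a change of the group. At E18.5 against E16.5, 3 of 5 were higher, where 0.864% of all genes were called higher and 0.278% lower. With E18.5 replicate 1 or replicate 2 left out, the Nlrp5 call held and Padi6 lost its call. Nlrp4f then failed the filter and was not tested. At E18.5 against E11.5, 3 of 5 were higher, where 13.4% of all genes were higher and 16.6% lower. Of all calls in that comparison 44.7% were higher, and 56.2% on values as deposited. The same E18.5 arrays enter both comparisons, which are not independent. The limma F test over the 5 stages called 4 of 5, against 35.9% of all genes. At E16.5 against E14.5, 0 of 5 passed the limma test, also 0 at an unadjusted p under 0.05, where 1.20% of all genes were higher and 2.62% lower. Of all calls there 31.3% were higher, and 41.5% after quantile normalization. At E14.5 against E11.5, 1 of 5 was higher, Nlrp5, where 3.50% of all genes were higher and 2.12% lower. The median change over the 5 genes at E18.5 against E16.5 was 1.83, and over all genes 0.02.

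Over the 9 arrays the log2 signals of Nlrp5 and Nlrp4f correlated at r = 0.940, those of Nlrp5 and Padi6 at 0.925 and those of Nlrp4f and Padi6 at 0.923. Ooep correlated with the other 4 at 0.386 to 0.548, and Zar1 with the other 4 at 0.521 to 0.574. These are descriptions over 9 arrays that share scaling and labelling, and the E18.5 pair carries most of the range of the first 3 genes.

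These transcripts are known from the oocyte, the female germ cell, and in a tissue sample fewer cells of a type and less RNA per cell cannot be told apart. The summed signal of 12 germ cell markers was 12825 to 13443 at E18.5 against 8041 to 8474 at E16.5. Of the 12, 5 were higher at E18.5 and 0 lower, with a median change of 0.78. Of all genes 0.864% were called higher in that interval and 0.278% lower. At E18.5 against E11.5 the shares were 13.4% higher and 16.6% lower. These shares are to be set beside the counts of the lists below as well. Ddx4, a germ cell RNA helicase, changed by -0.04 ± 0.19, and Dazl, a germ cell RNA-binding protein, by 0.45 ± 0.26 (SE), neither past the test. The 5 that rose were Tdrd1, Tdrd9, Mov10l1 and Piwil2, of the piRNA pathway that silences transposons, and the receptor gene Kit. Tdrd1 and Tdrd9 passed the filter only through their E18.5 arrays, so a difference was built into their being tested.

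Taken relative to the mean log2 signal of those 12 markers on the same array, Nlrp5 stood at -0.30 and -0.06 at E18.5, against -2.21 and -2.28 at E16.5. Nlrp4f stood at -0.95 and -0.25 at E18.5, against -3.52 and -3.83 at E16.5. For Padi6 the values were -1.73 and -1.65 at E18.5, against -2.70 and -1.93 at E16.5. Relative to the germ cell markers, Nlrp5, Nlrp4f and Padi6 were thus higher at E18.5 than at E16.5, without overlap. The Padi6 values came closest, -1.73 at E18.5 against -1.93 at E16.5. At E16.5 both signals of Nlrp4f and of the marker Pou5f1 were under the background limit, so the sizes of these gaps depend on the 16 added. In E11.5 Padi6 stood at -0.60 and -1.35, and Nlrp5 at -1.76 and -1.69. There both Nlrp5 signals, that of Padi6 on replicate 2 and those of some markers were under the background limit. The E11.5 values thus depend on the 16 added and give no order against E18.5. The markers summed to 1085 to 1086 at E11.5. Ooep, at -2.14 and -1.47 in E18.5 against -1.47 and -1.59 in E16.5, was not separated. Zar1, at -2.24 and -2.21 in E18.5 against -1.21 and -1.37 in E16.5, was lower relative to these markers. The marker mean itself was 9.57 and 9.45 at E18.5 against 8.31 and 8.29 at E16.5, and 5 of the 12 markers had risen. The lower place of Zar1 thus depends on the markers chosen, and its own signal had no called change.

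**Figure D3:**
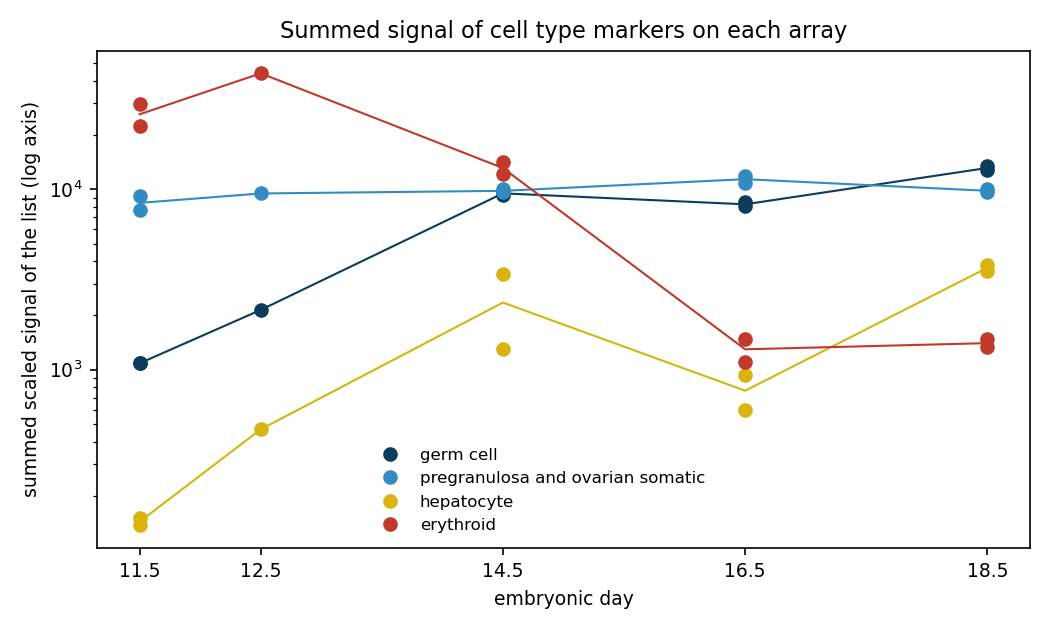
Summed scaled signal (log axis) of marker lists on each of the 9 arrays by embryonic day, with lines through stage means. The germ cell list is at 12825 to 13443 on the E18.5 arrays and 8041 to 8474 on the E16.5 arrays, and the hepatocyte list is at 3539 to 3809 on the E18.5 arrays and 598 to 932 on the E16.5 arrays.

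Of the marker lists of other cell types, that of hepatocytes held genes past the limma test in the same interval. Of 8 hepatocyte markers 6 were measured, and their summed signal was 3539 to 3809 at E18.5 against 598 to 932 at E16.5. Alb, Ttr, Apoa1 and Fgb, genes of plasma proteins, were higher at E18.5, the median change was 2.17, and none of the 6 was under the background limit at E18.5. Fgb passed the filter only through its E18.5 arrays, so a difference was built into its being tested. At E14.5 the hepatocyte sum was 1308 to 3407. The part of these transcripts in the results was not tested. The 12 pregranulosa and ovarian somatic markers were all above background at every stage, with sums of 9639 to 9984 at E18.5 against 10876 to 11884 at E16.5 and 0 called by limma. Testis somatic markers summed to 332 to 344 at E18.5 against 315 to 346 at E16.5, with 2 of 7 under the limit at E18.5. Mesonephric markers summed to 258 to 386 at E18.5 against 464 to 610 at E16.5, and erythroid markers to 1331 to 1478 at E18.5 against 1111 to 1485 at E16.5. Endothelial markers summed to 471 to 489 at E18.5 against 654 to 694 at E16.5, exocrine pancreas markers to 126 to 177 at E18.5 against 232.4 to 232.5 at E16.5, and macrophage markers to 350 to 387 at E18.5 against 380 to 474 at E16.5. The pregranulosa and ovarian somatic, mesonephric, endothelial and exocrine pancreas sums were thus lower at E18.5 than at E16.5, without overlap. No single gene of these lists was called in that interval.

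Partners of NLRP5 and OOEP were followed through Tle6, Khdc3, Zbed3 and Nlrp2. Nlrp2 had no probe set, and of the other 3 none passed the limma test at E18.5 against E16.5. Tle6, which encodes a co-repressor-like part of the complex, had signals of 630 to 651 at E18.5 against 326 to 403 at E16.5, a change of 0.80 ± 0.22 (SE, adjusted p 0.151), and against E11.5, with 181 to 250, a change of 1.52 ± 0.22 that passed (adjusted p 3.23e-04). Khdc3, which encodes FILIA, changed by 0.07 ± 0.31 (SE, adjusted p 0.948) and Zbed3 by 0.65 ± 0.21 (SE, adjusted p 0.210). At E18.5 against E11.5, Khdc3 changed by 0.61 ± 0.31 (SE, adjusted p 0.173) and Zbed3 by 0.54 ± 0.21 (SE, adjusted p 0.0758). With values as deposited or quantile normalized, 2 of the 3 passed against E11.5 in place of 1.

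Among other Nlrp genes 12 of 17 had a probe set and 4 passed the filter, Nlrp3, Nlrp4c, Nlrp6 and Nlrx1, none of which was called at E18.5 against E16.5 or against E11.5. Nlrp4c, a near relative of Nlrp4f, had signals of 63.1 to 67.5 at E18.5 against 8.85 to 37.6 at E16.5, a change of 1.15 ± 0.39 (SE, limma adjusted p 0.223). Nlrp4b, named after its values were seen, failed the filter but showed the pattern of Nlrp4f, with 30.6 to 37.4 on the E18.5 arrays and at most 7.54 on the other 7. Fitted without the filter, its limma adjusted p was 0.0157 at E18.5 against E16.5 and 0.00101 against E11.5. Since Nlrp4b was picked by its pattern in these same values, the p-values are no independent test of it. Its E18.5 signals lay close to the background limits of 23.8 and 25.4. It was thus at least 1.332-fold higher than at E16.5 and at least 1.505-fold higher than at E11.5. The mouse Nlrp4 genes are close copies, and the probe sets of the family may share transcripts.

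Of 8 measured relatives in other families (of 11) 5 were tested. Dppa5a, an RNA-binding gene of the family of Ooep, was higher at E18.5 than at E16.5 by 1.21 ± 0.23 (SE, limma adjusted p 0.0249). Against E11.5 it fell by 2.56 on the log2 scale, and Padi2, a deiminase of other tissues, fell by 1.70. The Padi2 signals were 4.38 to 4.75 at E18.5, under the background limits of 23.8 and 25.4 on those arrays. The size of the Padi2 fall thus depends on the value added before the logarithm.

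At E18.5 against E11.5, calls among other maternal effect genes went in both directions, as did those among all genes. Of 24 listed, 23 had a probe set and 21 were tested, and 2 were higher and 0 lower at E18.5 against E16.5. Dppa3, which protects the maternal genome from demethylation, had signals of 3223 to 3417 at E18.5 against 69.6 to 96.6 at E16.5, a change of 5.09 ± 0.23 (SE, limma adjusted p 2.69e-07). Kdm1b, a histone demethylase needed for oocyte imprints, had 736 to 795 at E18.5 against 106 to 121 at E16.5, a change of 2.59 ± 0.21 (SE, limma adjusted p 5.86e-05). Against E11.5, 3 were higher and 8 lower, where 13.4% of all genes were higher and 16.6% lower. The counts were 6 and 7 on values as deposited and 5 and 6 after quantile normalization. Kdm1b and Dppa3 rose by 2.56 and 2.12, and the largest falls were those of Ezh2, a histone methyltransferase (-1.69), and Ctcf, a chromatin insulator protein (-1.41). The median of the 21 was 0.16 at E18.5 against E16.5 and -0.07 against E11.5, where it was 0.04 with values as deposited.

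Transcription factors of the oocyte and egg coat genes give the surrounding programme. Of 10 measured oocyte transcription factors 7 were tested, and 4 were higher at E18.5 than at E16.5, with a median of 1.77 over the 7. Nobox had 417 to 438 at E18.5 and was under the background limit at E16.5, at least 16.8-fold higher. Lhx8 changed by 4.03 ± 0.30, Sohlh1 by 3.05 ± 0.22 and Figla by 1.77 ± 0.24 (SE). Of the zona and oocyte product genes 12 of 16 had a probe set and 5 were tested, and 1 was higher, Tcl1, a kinase co-activator gene (2.42 ± 0.31, SE, limma adjusted p 0.00242). Zp2, which encodes a zona pellucida glycoprotein, was called against E11.5, at least 4.09-fold higher, and not against E16.5.

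**Figure D4:**
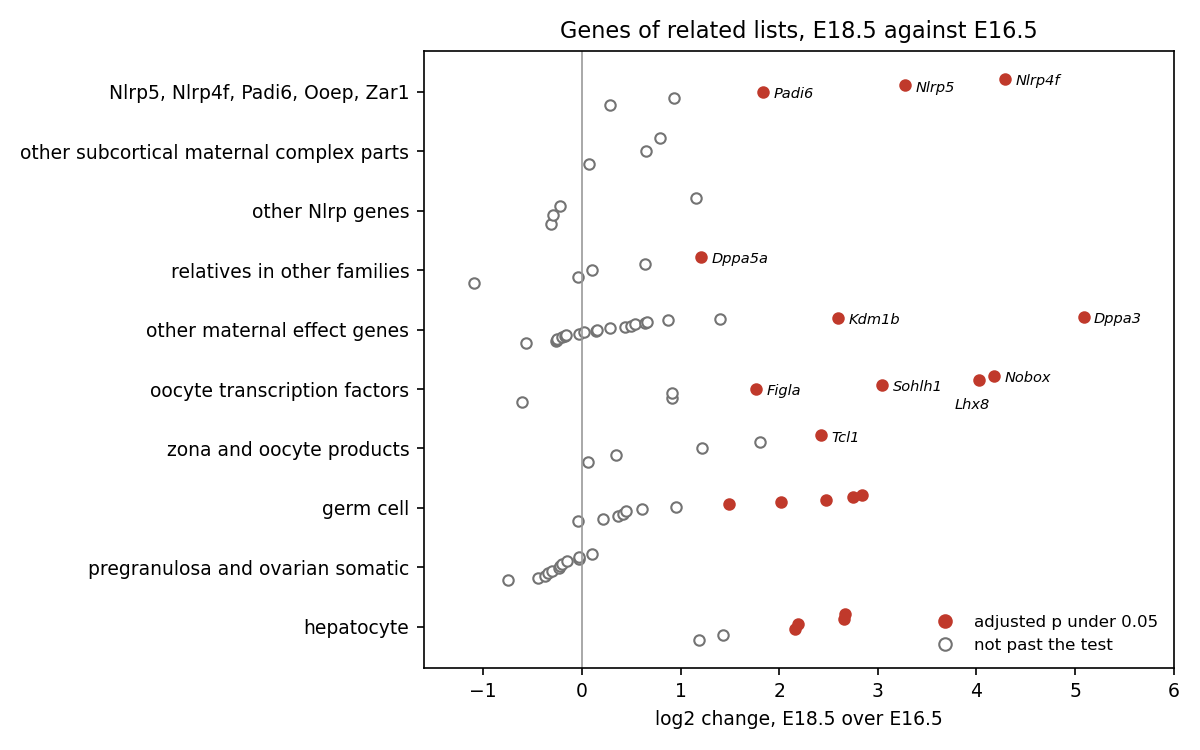
Change on the log2 scale at E18.5 over E16.5 of each tested gene, by list, with red filled points past the limma test at an adjusted p under 0.05 and open points not past it. Nlrp4f, Nobox and the hepatocyte gene Fgb are set against E16.5 signals under the background limit, so their place along the axis depends on the value added. None of the 3 other subcortical complex genes or the 4 other Nlrp genes is past the test.

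For each gene past the F test, the genes closest in pattern were taken as the 4 with the highest correlation of log2 signal over the 9 arrays, among 13304. For Nlrp5 they were Mbl2 (r = 0.984), Bcl2l14 (0.983), Piwil2 (0.983) and Vkorc1 (0.983). For Nlrp4f they were Pdcl2 (0.990), Kdm1b (0.990), Ccno (0.986) and Fgb (0.980). For Padi6 they were Tctex1d2 (0.983), Eif1b (0.980), Stk32a (0.979) and Vil1 (0.9753), and for Ooep they were Nr2c2ap (0.969), Ackr1 (0.948), Cd3eap (0.926) and Bnip1 (0.925). These lists hold both germ cell genes such as Piwil2 and plasma protein genes such as Mbl2 and Fgb, and the E18.5 arrays carry most of the range of Nlrp5, Nlrp4f and Padi6.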

How the data were processed

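The authors deposited array intensities on a linear scale, without calls of detection. Trimmed by 2% at each end, these signals had a mean of 125 on every array, and their software is not given in the sources used here. RNA was extracted with Trizol and labelled with biotin by a single cycle protocol, per the labels' protocols. The deposited experiment files hold other content, wash and scan settings, and their hybridize date gave the wash runs. Deposited array medians ran from 36.7 to 91.0, and from 36.7 to 52.4 without E12.5 replicate 2.

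Signals were scaled to a common 75th percentile of 142 and taken as log2(signal + 16). Of 45101 probe sets 64 controls were left out. Of the rest 34945 had 1 gene symbol, 932 several and 9160 none, and 34741 were matched to a current gene table, which updated 0. A test required a signal of at least 48.0, the median of all values, on at least 2 of 9 arrays, which 27510 probe sets met. A gene was represented by its brightest probe set on average. Tests used limma 3.58.1 in R 4.3.3 (a mean for each stage, eBayes with trend, two-sided), with Benjamini-Hochberg adjustment over all probe sets tested and a threshold of 0.05. All adjusted p-values are from limma. A bound ("at least N-fold") is a ratio of geometric means, whereas the stage means printed beside it are arithmetic. It sets the brighter stage against, per array, the higher of the dim signal and the background limit. Figures were drawn with matplotlib 3.10.9 and tables made with pandas 2.3.3 and numpy 2.4.6 in Python 3.11.15. The fit was tested on simulated data.

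The genes, lists and tests were chosen with earlier results of these data known. Named genes were all the listed maternal effect genes, every listed complex partner, from each other list the up to 4 called genes that changed most, the marker genes and the 4 of closest pattern. Alternatives were values as deposited, quantile normalization, 1 or 64 added, no filter, all 10 arrays, no E12.5 array, a replicate block, each array left out, a fit within the wash run and, chosen after seeing the data, the wash module as a block. Leaving out E12.5 replicate 1 is the same fit as no E12.5 array, and the counts of alternatives hold it under both names.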

Additional observations from a re-analysis of the deposited data

Results flagged for a closer look

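E12.5 replicate 2 entered no comparison, and 3 of the 6 measured genes lay above that array's own background limit of 152. Their scaled signals there were 246.19 for Ooep, 224.49 for Zar1 and 161.77 for Padi6. Nlrp5, at 59.3, Nlrp4f, at 88.7, and Nlrp14, at 11.6, were under the limit. The limit of this array is several times that of the other 9, and its values were not used.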

How the results depend on the processing

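Over 428 alternative values of single genes, 407 stayed on the same side of the threshold, 21 lost the call and no called change turned its sign. Some changes that were not called did, such as that of Nlrp5 at E16.5 against E14.5 (-0.31 to 0.20). The 407 include changes called neither in the main fit nor in the alternative, so they do not measure how often a call held. A fit in which a gene failed the filter adds no value to the 428. The counts out of the 5 genes below hold such a gene as not called, though it was not tested. The Nlrp5 call at E18.5 against E16.5 held in 17 of 17 alternatives and that of Nlrp4f in 14 of 15, lost with all 10 arrays (adjusted p 0.176), with a change of 2.87 to 5.64; without an E18.5 array Nlrp4f failed the filter. With all 10 arrays the F test called 2 of the 5 genes and 186 of all genes, against 4 and 4771. E18.5 against E16.5 then called 1 and 3, against 3 and 152, and E18.5 against E11.5 called 200 genes against 3986. E16.5 against E14.5 then called 0 genes (462 at an unadjusted p under 0.05) against 508, and E14.5 against E11.5 called 0 of the 5 genes (1 at an unadjusted p under 0.05) and 48 genes, against 1 and 748. Without the filter 95 genes were called at E18.5 against E16.5 and 181 at E16.5 against E14.5, and within the wash run E16.5 against E14.5 called 286. The cause of these shifts was not tested.

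With each array left out in turn, the lone array of a stage taken to vary like the others, the F test called 2 to 4 of the 5 genes and 3155 to 4556 of all genes. E18.5 against E16.5 called 1 to 3 and 24 to 195, E18.5 against E11.5 called 2 to 3 and 2167 to 4035, E16.5 against E14.5 called 0 and 19 to 899, and E14.5 against E11.5 called 0 to 1 and 321 to 751. Without E18.5 replicate 1 and replicate 2, E18.5 against E16.5 called 1 and 1 of the 5 genes and 24 and 37 of all genes, E18.5 against E11.5 called 2167 and 2392 genes, and E16.5 against E14.5 called 204 and 204. The F test called 3155 genes without E18.5 replicate 1 and 2 of the 5 genes without E18.5 replicate 2. Without E16.5 replicate 1, E18.5 against E16.5 called 34 genes. E16.5 against E14.5 called 895 and 899 genes without E11.5 replicate 1 and replicate 2, 100 and 36 without those of E14.5, and 19 without E16.5 replicate 2. E14.5 against E11.5 called 321 and 484 genes without E14.5 replicate 1 and replicate 2, and 0 of the 5 genes without replicate 2.

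The replicate numbers do not pair the arrays: differences between replicates correlated between stages at r of -0.07 to 0.04 across probe sets. With a replicate block 4, 3, 3, 0 and 1 of the 5 genes were called in the F test, E18.5 against E16.5, E18.5 against E11.5, E16.5 against E14.5 and E14.5 against E11.5, and 4378, 147, 3859, 478 and 712 of all genes. Values as deposited moved the median of all genes at E18.5 against E11.5 to 0.12. At 2 arrays a stage, signals near the background limit, as for Nlrp14 and the early stages of Nlrp4f and Padi6, give no order.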
